A study of Homo sapiens with 6 samples.

Results

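Topoisomerases are the enzymes that cut, untwist and rejoin DNA, and doxorubicin, the drug to which MDA-MB-231-DR cells are resistant, acts by trapping the type II enzymes TOP2A and TOP2B on the DNA they have cut. The 6 human topoisomerase genes (TOP1, TOP1MT, TOP2A, TOP2B, TOP3A and TOP3B) and the 2 genes for tyrosyl-DNA phosphodiesterases, which remove trapped topoisomerases from DNA ends (TDP1 and TDP2), were picked out by gene name from the 58302 genes in the table. All 8 genes were found, and all 8 passed the filter on low counts. RNA was sequenced from MDA-MB-231-DR, a doxorubicin-resistant line derived from MDA-MB-231, a human cell line of triple-negative breast cancer, in 3 control and 3 CYT-treated libraries. CYT is cyperotundone, a compound from sedge plants, and the study sequenced these cells to look for its targets in drug resistance. The methods describe the resistant line as kept in medium with a low concentration of doxorubicin, which both groups would share, and the dose and duration of CYT for these libraries are not given in the sources used here. No library of the parental line was analysed here, and the resistant line is a single model.

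Of the 8 genes, 2 fell after CYT treatment. TOP1MT, the mitochondrial type I topoisomerase, fell by 2.47 on the log2 scale, and TDP1, which clears trapped TOP1, fell by 1.31. None of the other 6 passed an adjusted p of 0.05 in the test over all genes, neither of the doxorubicin targets among them. The test was edgeR's quasi-likelihood test on the raw counts, with p-values adjusted by the Benjamini-Hochberg method over 15572 genes, and in the same test 28.6% of all genes were called, 12.9% as lower and 15.7% as higher after CYT. The 2 of 8 called here therefore lie near the share of all genes. The 8 genes had a median log2 fold change of -0.45, against 0.0064 over all tested genes.

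Total counts were from 14050849 to 17770102 in the control libraries and from 13056270 to 14106017 in the CYT libraries. The 6 marker genes of basal and mesenchymal breast cancer lines were all counted, with a summed FPKM of 539.4 to 559.6 in control and 274.3 to 281.1 in CYT libraries, while the 6 luminal and epithelial markers summed to 0.654 to 0.988 in any library. Leukocyte, endothelial and fibroblast markers summed to at most 0.188, 0.339 and 1.42, with CD3E and DCN at 0 in every library. COL1A1 held most of the fibroblast sum, with 192 to 316 counts in control and 35 to 55 in CYT libraries. It was called lower (log2 fold change -2.16, edgeR adjusted p = 0.00264). ITGAM, a leukocyte marker, had 2 to 3 counts in control and 8 to 16 in CYT libraries. Replicate 2 stood apart in both groups in the GC content of what it counted. Per 10 percentage points of GC content, log2 CPM deviated from the gene mean by -0.21 in control replicate 2 and -0.64 in CYT replicate 2, against 0.14 to 0.27 in the other 4 libraries. CYT replicate 2 also correlated least with the other libraries of its group (r of 0.904 and 0.905 across genes, against 0.970 between CYT replicates 1 and 3). This touches the genes described here, because their longest GENCODE transcripts range from 39.1% GC for TOP2A to 59.6% for TOP3B, so the values of these 8 genes are also given without replicate 2 or with a correction for GC content where that changes a call, and those of the partner lists as counts in the closing section.

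Topoisomerases differ in how many DNA strands they cut. Type IA (TOP3A and TOP3B) and type IB (TOP1 and TOP1MT) enzymes cut a single strand, whereas type IIA enzymes (TOP2A and TOP2B) cut both and pass another duplex through the gap. Each enzyme forms a bond between a tyrosine and the DNA end while the strand is open, and drugs that trap this state turn it into a DNA break. TOP2A is made mainly in dividing cells and separates sister chromosomes before mitosis, while TOP2B is made in dividing and resting cells alike and acts in transcription. TDP1 breaks the bond left by TOP1, and TDP2 the bond left by type II enzymes.

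The sequences upstream of the start sites of TOP2A and TOP2B are shown because these are the doxorubicin targets, and because their promoters differ in the CCAAT box, the site of the factor NF-Y found in front of many genes of the cell cycle. The stretches come from the RefSeq promoter table (GRCh38.p14), on the minus strand, reading 5′ to 3′ towards the gene and leaving out bases in any GENCODE exon. TOP2A is from chr17:40417951-40418146 and TOP2B from chr3:25664940-25665157. Capitals mark CCAAT or its reverse complement ATTGG, and TTTGAA or its reverse complement TTCAAA, the letters of the cell cycle homology region found in genes of late cell division. No marked motif overlaps another.
TOP2A: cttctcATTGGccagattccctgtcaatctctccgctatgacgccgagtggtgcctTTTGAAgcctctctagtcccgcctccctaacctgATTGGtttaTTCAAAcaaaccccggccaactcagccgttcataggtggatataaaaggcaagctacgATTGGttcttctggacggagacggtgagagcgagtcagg
TOP2B: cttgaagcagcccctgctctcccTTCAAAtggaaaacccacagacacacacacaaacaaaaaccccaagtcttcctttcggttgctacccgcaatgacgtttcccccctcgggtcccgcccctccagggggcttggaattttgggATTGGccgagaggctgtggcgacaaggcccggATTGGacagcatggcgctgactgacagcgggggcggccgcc
In the full 250 bases upstream of the start, TOP2A held 4 CCAAT boxes on either strand and TOP2B held 2, and the printed TOP2A stretch leaves out the fourth. A second RefSeq start of TOP2B, at 25664372, had neither motif in its 250 bases. The RefSeq start searched lies 988 bases inside the GENCODE gene for TDP1 and 134 bases inside it for TDP2. None of TOP1, TOP3A, TOP3B, TDP1 and TDP2 held a CCAAT box in the 250 bases before its RefSeq start. Of 35116 promoters in the table, 32% held at least 1 and 0.874% held 4 or more. TTTGAA or its complement occurred 2 times upstream of TOP2A, 1 time upstream of TOP2B and 1 time upstream of TDP1, and in 13.3% of all promoters. TOP1MT was not searched. These are matches of letters and not measured sites of binding.

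Values of single libraries are given below in the order of replicates 1, 2 and 3, and SE is the standard error of a log2 fold change. TOP2A (ENSG00000131747) lies on the minus strand of chromosome 17 (GRCh38, 40388516 to 40417950). Its level in CPM, that is in counts relative to a library total adjusted by TMM, was 169.7, 311.4 and 208.8 in the control libraries and 113.4, 248.2 and 96.2 after CYT. The groups overlapped, because CYT replicate 2 lay above control replicates 1 and 3, and replicate 2 was the highest library in both groups. The mean was 230 ± 73.2 (SD, n = 3) in control and 153 ± 83.2 (SD, n = 3) in CYT libraries. The log2 fold change was -0.59 (SE 0.41, 95% interval -1.52 to 0.33, edgeR adjusted p = 0.313), so no change of TOP2A was called. Between libraries of the same number CYT lay below control in all 3 cases, by 0.58, 0.33 and 1.12 on the log2 scale. A single direction in all 3 cases was also seen for TOP1MT, TDP1 and the uncalled TOP3A, TOP3B and TDP2. The labels give no pairing. With the replicate number as a block in edgeR the adjusted p of TOP2A was 0.0637, where 39.9% of all tested genes were called. Without CYT replicate 2 the log2 fold change was -1.15 and TOP2A was called lower (edgeR adjusted p = 0.0233), but that fit keeps control replicate 2, the highest library. Without control replicate 2 it was -0.34 and not called (edgeR adjusted p = 0.612). Without both it was -0.82 and called lower (edgeR adjusted p = 0.0241). TOP2A was also called lower after correcting for GC content and transcript length (log2 fold change -0.63, edgeR adjusted p = 0.0272).

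TOP2B (ENSG00000077097) lies on chromosome 3 from 25597905 to 25664907, on the minus strand. Its CPM was 72.7, 90.5 and 63.3 in the control libraries and 38.6, 92.3 and 41.3 after CYT. CYT replicates 1 and 3 lay below every control library and CYT replicate 2 above every one. TOP2B had a log2 fold change of -0.39 (SE 0.39, 95% interval -1.26 to 0.47, edgeR adjusted p = 0.478). Without CYT replicate 2 it was -0.92 and TOP2B was called lower (edgeR adjusted p = 0.0246), but that fit keeps control replicate 2, the highest control library. Without control replicate 2 it was -0.27 and not called (edgeR adjusted p = 0.690). Without both it was -0.74 and called lower (edgeR adjusted p = 0.0245). With the correction for GC content and length it was -0.46 and not called (edgeR adjusted p = 0.0694). The end of TOP2B overlaps RARB on the opposite strand by 28 exonic bases, and RARB had at most 13 counts in a library.

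TOP1 (ENSG00000198900), the nuclear type I enzyme that relaxes DNA ahead of polymerases and is the target of camptothecin drugs, lies on chromosome 20 from 41028818 to 41124487, on the plus strand. TOP1 is also known to phosphorylate SR splicing proteins such as SRSF1, the factor the study followed, whose own CPM fell from 134 ± 5.66 to 21.8 ± 4.19 (SD, n = 3 each). The CPM of TOP1 was 94.5, 90.2 and 77.1 in the control libraries and 69.5, 104.6 and 76.0 after CYT. CYT replicate 2 was the highest of the 6 libraries and the other CYT libraries were the lowest, so the groups overlapped. TOP1 had a log2 fold change of -0.066 (SE 0.29, 95% interval -0.72 to 0.58, edgeR adjusted p = 0.888). The interval leaves room for a change of up to 0.72 downwards or 0.58 upwards, and the sign changed between the alternative fits.

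TOP1MT (ENSG00000184428), the enzyme that relaxes mitochondrial DNA, lies on chromosome 8 from 143304384 to 143359979, on the minus strand. It had 448, 318 and 462 counts in the control libraries and 103, 21 and 67 counts after CYT. In CPM these were 27.8, 16.9 and 33.2 in control and 7.26, 1.49 and 5.32 in CYT libraries. Every CYT library lay below every control library, with replicate 2 the lowest in both groups. The mean was 26.0 ± 8.29 (SD, n = 3) in control and 4.69 ± 2.94 (SD, n = 3) in CYT libraries, which is a 5.52-fold difference in the fit. The log2 fold change was -2.47 (SE 0.54, 95% interval -3.68 to -1.25, edgeR adjusted p = 0.00909). TOP1MT was called lower in all 17 alternative fits, and its log2 fold change ran from -2.94 to -1.26 over them. The value nearest 0 came from limma on log2(FPKM + 1), a scale that understates the change of low genes. The share of all counts on mitochondrial genes was 2.41% to 3.58% in control and 3.46% to 8.56% in CYT libraries, and its part in the result was not tested. Leaving out both replicate 2 libraries gave -2.24 (edgeR adjusted p = 0.00161).

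TOP3A (ENSG00000177302), which untangles joined DNA molecules together with the BLM helicase and also acts in mitochondria, lies on chromosome 17 from 18271428 to 18315007, on the minus strand. Its CPM was 115.3, 75.9 and 66.4 in the control libraries and 124.7, 99.1 and 136.2 after CYT. Control replicate 1 reached into the range of the CYT libraries, and the other control libraries lay below all of them. Between libraries of the same number CYT minus control was 0.11, 0.38 and 1.04 on the log2 scale. TOP3A had a log2 fold change of 0.48 (SE 0.31, 95% interval -0.22 to 1.19, edgeR adjusted p = 0.279). With the correction for GC content and length it was 0.62 and TOP3A was called higher (edgeR adjusted p = 0.0278, and 0.0331 when the block was added). In the other 15 alternative fits TOP3A was not called.

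TOP3B (ENSG00000100038), which acts on RNA as well as DNA, lies on chromosome 22 from 21957025 to 21982816, on the minus strand. Its CPM was 28.3, 18.3 and 29.4 in the control libraries and 23.8, 11.1 and 18.8 after CYT. Replicate 2 was the lowest library of each group, and the groups overlapped. Between libraries of the same number CYT minus control was -0.25, -0.72 and -0.64 on the log2 scale. TOP3B had a log2 fold change of -0.50 (SE 0.37, 95% interval -1.32 to 0.33, edgeR adjusted p = 0.342), and TOP3B was called in none of the 17 alternative fits. The antisense gene AC245452.1 on the opposite strand shares 6024 exonic bases with TOP3B and had 49 to 113 counts in a library, and since the use of strand in counting is not given in the sources used here, reads of these genes may not have been told apart.

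TDP1 (ENSG00000042088) lies on chromosome 14 from 89954939 to 90044768, on the plus strand. It had 355, 335 and 380 counts in the control libraries and 174, 85 and 109 counts after CYT. In CPM these were 22.0, 17.8 and 27.3 in control and 12.3, 6.05 and 8.66 in CYT libraries, and the groups did not overlap. The log2 fold change was -1.31 (SE 0.36, 95% interval -2.13 to -0.50, edgeR adjusted p = 0.0241), a 2.49-fold difference. The call was lost when 1 library was left out in 3 of 6 cases, with an adjusted p from edgeR of 0.0611 without control replicate 1, 0.0898 without control replicate 3 and 0.0815 without CYT replicate 3. The log2 fold change stayed between -1.61 and -1.10 in those 6 fits, and it was -1.33 with the correction for GC content and length (edgeR adjusted p = 0.0144).

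TDP2 (ENSG00000111802) lies on chromosome 6 from 24649977 to 24667033, on the minus strand. Its CPM was 32.4, 55.5 and 39.97 in the control libraries and 38.3, 73.1 and 40.05 after CYT. Replicate 2 was again the highest library of each group, and the groups overlapped. Between libraries of the same number CYT minus control was 0.24, 0.40 and 0.0027 on the log2 scale. The log2 fold change was 0.24 (SE 0.36, 95% interval -0.56 to 1.05, edgeR adjusted p = 0.649), and its sign turned without CYT replicate 2 (-0.14).

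**Figure D1:**
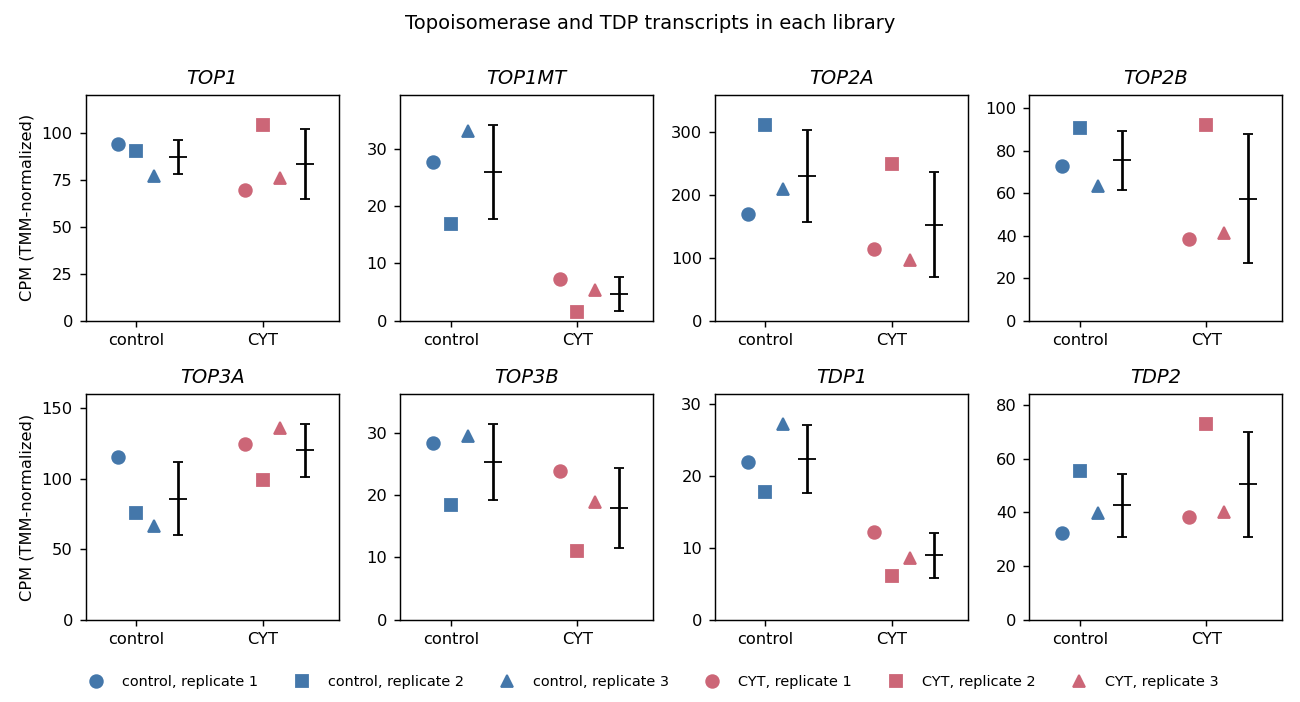
Level of each of the 8 genes in CPM (TMM-normalized, linear axis from 0) in each control (blue) and CYT (red) library, with the marker shape giving the replicate number and the black bar the mean with its SD (n = 3). TOP1MT and TDP1 are the genes whose groups do not overlap, and the squares of replicate 2 lie at the top of both groups for TOP2A, TOP2B and TDP2 and at the bottom for TOP1MT, TOP3B and TDP1.

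An exact permutation test between 3 and 3 libraries has 0.1 as its smallest two-sided p, which TOP1MT and TDP1 reached. Their groups did not overlap, which held for 2 of the 8 genes and for 46.1% of all tested genes. The labels do not say that the replicates were separate cultures, so the p-values measure the spread between these libraries alone. Fewer cells of a kind and less RNA per cell cannot be told apart in bulk libraries such as these.

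The position of replicate 2 followed the GC content of the gene, with TDP1 as an exception. The 4 genes of lowest GC content, TOP2A (39.1%), TOP2B (39.7%), TDP2 (40.1%) and TOP1 (42.2%), were higher in replicate 2 than in the mean of replicates 1 and 3 of the same group, by 0.73, 0.42, 0.62 and 0.081 on the log2 scale in control and by 1.25, 1.21, 0.90 and 0.52 in CYT libraries. The other 4 genes, TDP1 (45.2%), TOP3A (55.2%), TOP1MT (58.1%) and TOP3B (59.6%), were lower in replicate 2 of both groups. TDP1 deviated by -0.46 in control and -0.76 in CYT libraries, whereas the median of genes of 45% to 50% GC was 0.0050 and 0.19. TOP1MT deviated most, by -0.84 in control and -1.96 in CYT libraries. Over the 8 genes, which share the same 6 libraries, the deviation and the GC content had a Pearson correlation of -0.87 in either group. All tested genes showed the same course, with median deviations in CYT replicate 2 of 0.91 for 2067 genes of 35% to 40% GC and -0.77 for 2336 genes of 55% to 60%. In CYT replicate 2, TDP1 and TOP1MT lay below the lower quartile of genes in their bin of GC content and TOP2A just above the upper quartile (1.22), while the other 5 lay between the quartiles. With the correction for GC content and length, chosen after the data were seen, 4 of the 8 genes were called (TOP1MT, TDP1 and TOP2A lower, TOP3A higher), where 46.2% of all tested genes were called, 7191 in place of 4451. The same 4 were called when the block was added, where the share of all genes was 45.4%. Without both replicate 2 libraries, also chosen afterwards, 4 were called as well (TOP1MT, TDP1, TOP2A and TOP2B, all lower), where 41% of all tested genes were called. The fit without CYT replicate 2 alone called the same 4, and 35.6% of all genes. TOP1MT and TDP1 were thus called in each of these fits. TOP2A was called in all 4 of them, TOP2B only where CYT replicate 2 was left out, and TOP3A only with the correction, which acts on all 6 libraries.

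**Figure D2:**
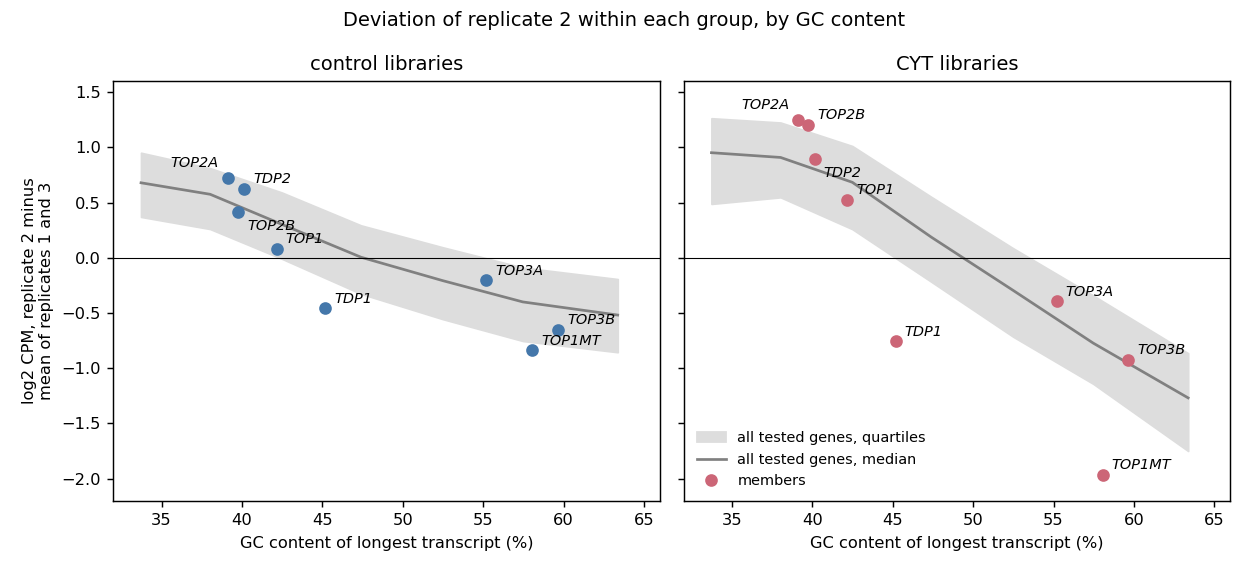
Difference in log2 CPM between replicate 2 and the mean of replicates 1 and 3 of the same group, against the GC content of the longest transcript in percent, for the 8 genes (points) and all tested genes (grey line, median by bin of GC content; grey band, from the lower to the upper quartile). In the control panel the 8 genes run from 0.73 for TOP2A to -0.84 for TOP1MT, and in the CYT panel from 1.25 to -1.96, falling with GC content like all genes. TDP1 lies below the grey band in both panels.

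**Figure D3:**
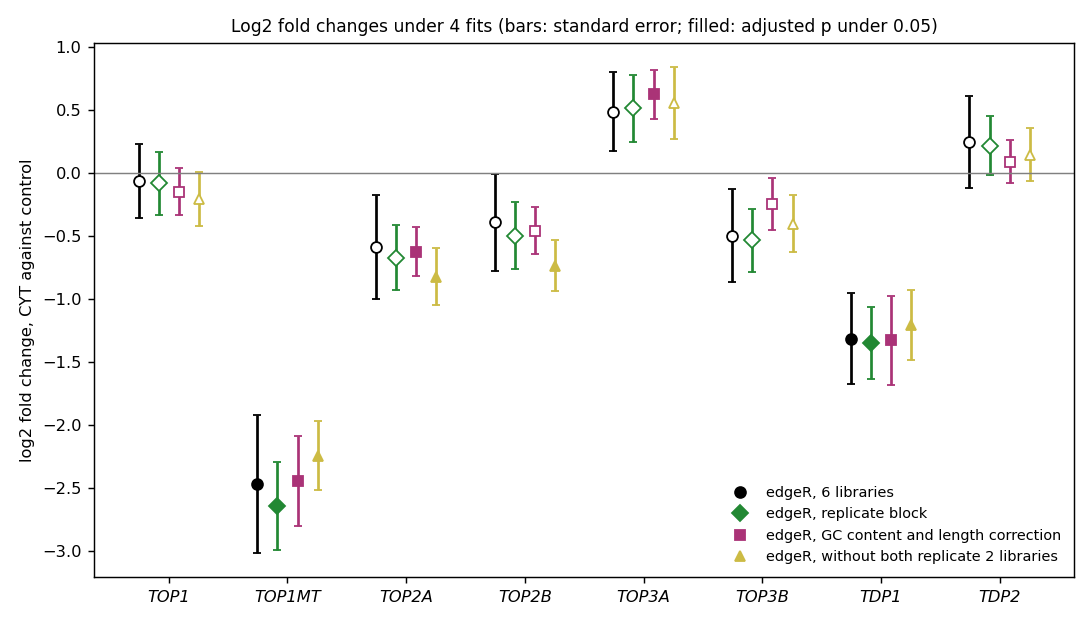
Log2 fold change of CYT against control with its standard error for each gene under edgeR on 6 libraries, edgeR with the replicate number as a block, edgeR with the correction for GC content and length, and edgeR without both replicate 2 libraries, with filled markers where the adjusted p is under 0.05. TOP1MT (-2.64 to -2.24) and TDP1 (-1.35 to -1.20) are filled in all 4 fits, TOP2A in 2, and TOP2B and TOP3A in 1.

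Ratios between related enzymes within a library do not depend on how libraries are scaled to each other. They are not freed of the GC trend described above where the genes of a pair differ in GC content. TOP2A exceeded TOP2B per length in every library, with FPKM ratios of 2.61, 3.85 and 3.69 in the control libraries and 3.28, 3.01 and 2.60 after CYT. The balance of the doxorubicin targets did not differ beyond the spread between libraries, with log2 ratios of 1.74 ± 0.31 in control and 1.56 ± 0.17 in CYT libraries (SD, n = 3, exact permutation test, two-sided p = 0.4). The difference of -0.18 ran from -0.35 to -0.073 when 1 library was left out. The ratio of TOP1 to TOP1MT was 9.38, 14.7 and 6.40 in the control libraries and 26.4, 193.1 and 39.4 after CYT. These levels depend on the gene lengths behind the FPKM, and with GENCODE exonic lengths each TOP1 to TOP1MT ratio is 1.601 times smaller, with group differences unchanged. The ratio was higher in every CYT library than in any control library, by 2.61 on the log2 scale in the mean. The value of CYT replicate 2 rests on 21 counts of TOP1MT. In that library TOP1 (42.2% GC) deviated by 0.52 from the mean of CYT replicates 1 and 3, and TOP1MT (58.1% GC) by -1.96. Without CYT replicate 2 the difference in the ratio was 1.75, and with the correction for GC content and length it was 2.43.

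TOP3A exceeded TOP3B 4.56-, 4.64- and 2.53-fold in the control libraries and 5.85-, 9.98- and 8.09-fold after CYT. Although neither gene was called, all 3 CYT ratios lay above all control ratios. The mean difference was 1.05 on the log2 scale (0.89 with the correction for GC content and length). TDP1 was the scarcer phosphodiesterase throughout, at 0.297, 0.1405 and 0.299 of TDP2 in the control libraries and at 0.1402, 0.0362 and 0.0946 after CYT. CYT replicate 1 lay just below control replicate 2. The mean difference was -1.57 on the log2 scale (-1.01 without CYT replicate 2 and -1.49 with the correction for GC content and length). For the last 3 pairs the exact permutation test gave a two-sided p of 0.1, the smallest that 3 against 3 allow, and 0.133 after Benjamini-Hochberg adjustment over the 4 pairs. None of the 4 ratios is therefore significant by this test.

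**Figure D4:**
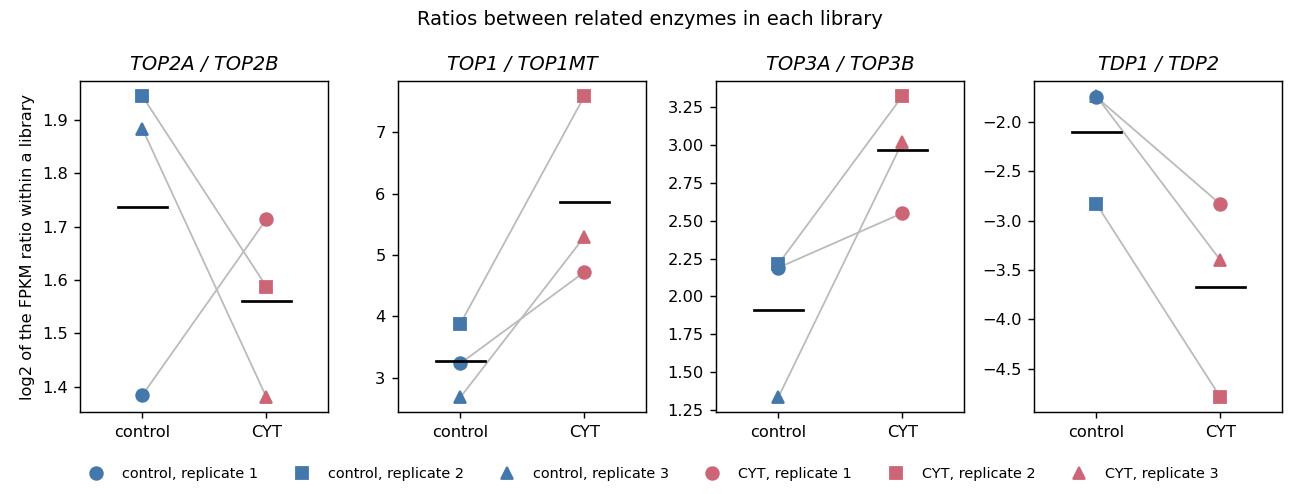
Log2 of the FPKM ratio between related enzymes in each library, with each pair on its own axis, grey lines joining libraries of the same replicate number and black bars giving the group means (n = 3). The groups overlap for TOP2A to TOP2B and not for the other pairs, whose means differ by 2.61 (TOP1 to TOP1MT), 1.05 (TOP3A to TOP3B) and -1.57 (TDP1 to TDP2).

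Per length, in the FPKM that the authors deposited, TOP2A (31.7 ± 12.1) and TOP1 (23.1 ± 2.57) were the most abundant of the 8 transcripts in control libraries (SD, n = 3), and their ranges overlapped. TOP2B (9.24 ± 2.18), TDP2 (7.88 ± 2.68) and TOP3A (6.09 ± 1.52) followed, each overlapping its neighbour. TOP1MT (2.48 ± 0.727), TDP1 (1.78 ± 0.350) and TOP3B (1.61 ± 0.324) were lowest and also overlapped. In CYT libraries TOP1 (22.6 ± 6.49) and TOP2A (21.6 ± 13.2) were again the highest, and TOP1MT (0.449 ± 0.278) had the lowest mean, with a range that overlapped that of TDP1 (0.724 ± 0.242). The gene lengths behind the FPKM exceed the exonic lengths of GENCODE release 29 for 7 of the 8 genes, for TOP3A with 13844 against 6476 bases, so the order depends on the length used. With the GENCODE lengths TOP3A stood at 13.0 ± 3.24 FPKM in control libraries and TOP2B at 12.5 ± 2.94 (SD, n = 3), in place of 6.09 and 9.24. TDP2, at 13.9 ± 4.72, then had a higher mean than both, and TDP1 (3.55 ± 0.697) a lower mean than TOP3B (3.75 ± 0.755), with overlapping SDs in these cases.

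Of the summed FPKM of the 6 topoisomerases, TOP2A held 41.8 ± 8.25% and TOP1 31.6 ± 4.04% in control libraries, against 33.1 ± 7.96% and 37.3 ± 3.07% in CYT libraries (SD, n = 3). TOP2B held 12.4 ± 0.685% and 11.2 ± 2.41%. TOP3A went from 8.45 ± 2.96% to 15.5 ± 5.83%, or from 14.4 ± 4.66% to 25.3 ± 8.61% with GENCODE lengths, and TOP1MT from 3.51 ± 1.48% to 0.871 ± 0.628%. TOP3B held 2.27 ± 0.786% and 2.12 ± 1.12%. The share of TOP1MT was below every control value in every CYT library (0.178% to 1.40% against 1.90% to 4.81%), while the shares of TOP1, TOP2A, TOP2B and TOP3B overlapped. For TOP3A, control replicate 1 (11.8%) lay above CYT replicate 2 (8.79%).

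Genes whose level ran most like that of a drug target over the 6 libraries were sought among 11409 genes with a mean of at least 5 CPM. RFC3, a subunit of the clamp loader of DNA replication, and EIF2S2, a subunit of a translation initiation factor, were nearest to TOP2A (Pearson r of 0.996 and 0.994 on log2 CPM, n = 6 libraries). AASDH and MED23, a subunit of Mediator, were nearest to TOP2B (0.997 and 0.996), and RTN3 and GALNT3 to TOP1 (0.992 and 0.991). None of these 6 genes was called, and the libraries share the GC trend described above, so the likeness covers the place of replicate 2 as well as the groups.

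Among the genes that work with topoisomerases, those for single-strand break repair, which finish the work of TDP1, were called in 4 of 13 cases, 3 lower and 1 higher (median log2 fold change -0.43). Over all tested genes 28.6% were called, which is the background for this list and for those that follow. PARP2, a sensor of DNA breaks, fell by 2.30 on the log2 scale (SE 0.36, edgeR adjusted p = 0.00222), from 21.7 ± 4.59 to 4.39 ± 1.23 CPM (SD, n = 3). LIG3, the ligase that seals such breaks, fell by 1.25, and ERCC1, the partner of a nuclease that can cut trapped TOP1 away, by 1.22. APLF, an end joining factor, rose by 1.12. PARP2 was called in all 17 alternative fits, LIG3 in 15, APLF in 10 and ERCC1 in 9. LIG3 lost its call without control replicate 1 or CYT replicate 3, and ERCC1 and APLF lost theirs when any library other than control replicate 2 was omitted. With the replicate block, which called 39.9% of all tested genes, 7 genes of the list were called, 5 of them lower.

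Of 18 genes for the removal of trapped type II enzymes and the joining of broken ends, 1 was called lower and 1 higher (median -0.011). RNF4, a ubiquitin ligase that marks trapped topoisomerases for degradation, rose by 1.95 (SE 0.47, edgeR adjusted p = 0.0137), from 21.3 ± 6.07 to 82.3 ± 42.8 CPM (SD, n = 3). Its call was lost without control replicate 3 (edgeR adjusted p = 0.0672), and without both replicate 2 libraries RNF4 rose by 2.54. NBN, part of the MRN complex that trims blocked ends, fell by 1.29, and its call was lost in 8 of 17 alternative fits, among them those without control replicate 2 or 3 and without CYT replicate 1 or 3. With the replicate block (39.9% of all genes) 4 genes were called, 3 of them lower.

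Of the 5 partners of type IA enzymes 3 were called, BLM lower and RMI1 and RMI2 higher. BLM, the helicase that works with TOP3A, fell by 2.03 on the log2 scale (SE 0.38, edgeR adjusted p = 0.00456), from 21.3 ± 5.74 to 5.21 ± 1.90 CPM (SD, n = 3). RMI1, which holds BLM and TOP3A together, rose by 2.23 (SE 0.50, edgeR adjusted p = 0.00955), from 11.3 ± 5.16 to 53.0 ± 33.2 CPM. CYT replicate 2, at 91.3 CPM, was far above the other CYT libraries (32.4 and 35.1), and without it the log2 fold change of RMI1 was 1.57. RMI2, the third subunit, rose by 0.90 (edgeR adjusted p = 0.0381). BLM and RMI1 were called in all 17 alternative fits, and RMI2 in 11, losing its call when any library other than CYT replicate 2 was omitted. TDRD3, the partner of TOP3B, and FMR1 were not called. The median of the 5 genes, 0.67, is that of TDRD3, and it was -0.061 without CYT replicate 2, where TDRD3 had its highest level.

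Condensins, which act with TOP2A in packing chromosomes, had 2 of 8 genes called, both lower (median -0.39). NCAPH fell by 2.39 (SE 0.29, edgeR adjusted p = 0.000867) and NCAPD2 by 1.03, and the call of NCAPD2 was lost without control replicate 1, CYT replicate 1 or CYT replicate 3. SMC2, a core subunit with a log2 fold change of 0.85 (edgeR adjusted p = 0.177), was called higher with the replicate block (0.77, edgeR adjusted p = 0.0356) and with the correction for GC content and length (0.83, edgeR adjusted p = 0.0122), but not without CYT replicate 2 (0.29, edgeR adjusted p = 0.543) or without both replicate 2 libraries (0.68, edgeR adjusted p = 0.0515). NCAPG, another subunit, had a log2 fold change of -0.52 (edgeR adjusted p = 0.353). It was called lower with the correction (-0.57, edgeR adjusted p = 0.0277), without both replicate 2 libraries (-0.64, edgeR adjusted p = 0.0357) and without CYT replicate 2 (-0.997, edgeR adjusted p = 0.0397). With the replicate block NCAPG was not called (-0.57, edgeR adjusted p = 0.0834). Of 10 cohesin and CTCF genes, which meet TOP2B at the anchors of chromatin loops, CTCF alone was called. It fell by 1.13 (edgeR adjusted p = 0.0225), from 75.5 ± 4.93 to 34.6 ± 9.51 CPM (SD, n = 3), and its call was lost without any 1 of the control libraries and without CYT replicate 3. Of 15 genes of the G2 and M phases, when TOP2A peaks, 7 were called lower and 0 higher (median -0.96). PLK1, a kinase of mitosis, fell by 3.13 (SE 0.33), AURKB fell by 2.34 and CCNB2, a cyclin of mitosis, fell by 1.92 (edgeR adjusted p = 0.000544, 0.0026 and 0.00189). CCNA2, CCNB1, CDC20 and UBE2C were the others, and UBE2C alone lost its call when a library was left out, which happened without control replicate 1, control replicate 3 or CYT replicate 3. MKI67 was not called (log2 fold change 0.31). CDK1, the kinase that drives entry into mitosis, lay in the opposite direction with a log2 fold change of 1.12 and missed the threshold (edgeR adjusted p = 0.0636). It was called higher with the replicate block (1.09, edgeR adjusted p = 0.00775), with the correction for GC content and length (0.95, edgeR adjusted p = 0.00528) and without both replicate 2 libraries (1.06, edgeR adjusted p = 0.0114). Without CYT replicate 2, which at 976.9 CPM lay far above the other CYT libraries (402.4 and 532.5), it was not called (0.66, edgeR adjusted p = 0.154). With the block (39.9% of all genes) 10 genes of the list were called, 9 lower and 1 higher. DESeq2, upper-quartile scaling and the fit without control replicate 2 each called 8 genes of the list, 7 lower and 1 higher. Set against 28.6% over all genes, the shares called were 4 of 13, 2 of 18, 3 of 5, 2 of 8, 1 of 10 and 7 of 15 genes.

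**Figure D5:**
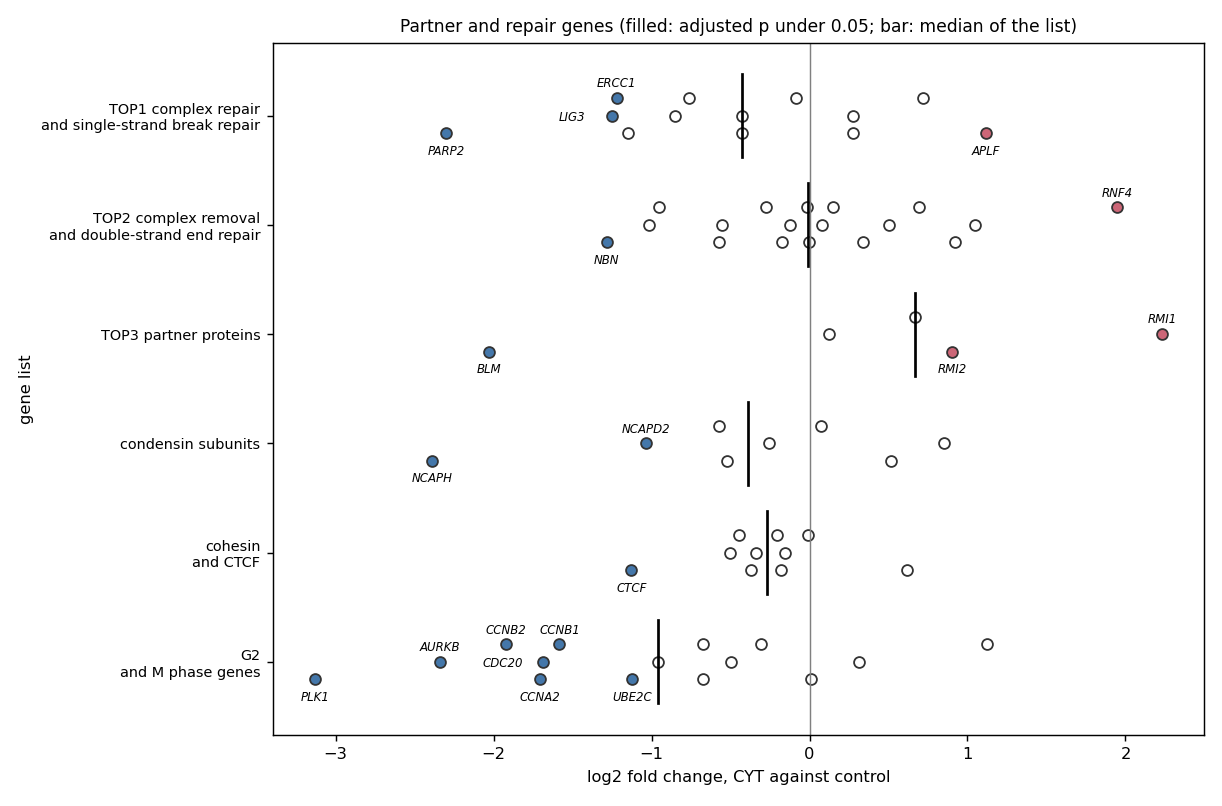
Log2 fold change of CYT against control for each gene of the 6 partner and repair lists (points, spread vertically for legibility), filled blue where called lower and filled red where called higher (adjusted p under 0.05), with a black bar at the median of each list. Medians run from -0.96 for the genes of the G2 and M phases to 0.67 for the partners of TOP3, where BLM at -2.03 and RMI1 at 2.23 lie at opposite ends.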

How the data were processed

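RNA of 6 libraries was measured, with mRNA isolated before NovaSeq sequencing. The authors discarded reads of low quality, with adapter or from rRNA, used Hisat2 for alignment (hg38 per the labels) and deposited raw counts per gene and FPKM. The methods name Stringtie for FPKM and "edge software" for quantifying genes. The annotation and the use of strand are not given in the sources used here. Groups were taken from the sample titles. Counts were tested with edgeR 4.0.16 in R 4.3.3 (TMM, filterByExpr with a minimum count of 10, quasi-likelihood test of CYT against control without covariates). Intervals were obtained from the standard error and the degrees of freedom of the fit. No library pair within a group agreed within sampling noise (chi-square per gene of 25.0 or more). Same-numbered libraries had correlated deviations (r of 0.188, 0.458 and 0.124 for replicates 1, 2 and 3). As each was over 0.1, the numbers were treated as pairs, although control replicate 1 with CYT replicate 3 (0.303) and control replicate 3 with CYT replicate 1 (0.201) correlated more than the same-numbered pairs 1 and 3. Alternatives were DESeq2 1.42.0, limma 3.58.1 on log2(FPKM + 1) and log2(FPKM + 0.1), RLE and upper-quartile scaling, all genes unfiltered, genes over a mean of 5 CPM, a replicate block and leaving out each library. A correction for GC content and length of the longest GENCODE 29 transcript (99.8% of 15572 genes had one) and the fits without both replicate 2 libraries were added after the data were seen. The scripts were tested on simulated data. The members and lists were chosen with earlier results of these data known. Genes named are the members, genes overlapping them, related genes fixed by name, up to 3 called genes a direction in each list (all where at most 5) and the 2 genes most correlated with TOP1, TOP2A and TOP2B. CCNA2, CCNB1, CDC20, UBE2C, MKI67, CDK1, SMC2, NCAPG, TDRD3, FMR1, COL1A1 and ITGAM were named after their values were seen.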

Additional observations from a re-analysis of the deposited data

How the results depend on the processing

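TOP1MT was called lower in all 17 alternative fits and TDP1 in 14. The calls of TDP1 lost were those without 1 library, with log2 fold changes from -1.61 to -1.10 over those 6 fits. TOP2A and TOP3A gained a call with the GC content and length correction (-0.63 and 0.62) and with the replicate block added to it (-0.63 and 0.64), and TOP2A (-0.82) and TOP2B (-0.74) without both replicate 2 libraries. Leaving out 1 library gave from -1.15 to -0.34 for TOP2A, from -0.92 to -0.18 for TOP2B, from -0.27 to 0.044 for TOP1 and from -0.14 to 0.46 for TDP2. TOP1 was 0.086 with upper-quartile scaling, which moved the median of all genes from 0.0064 to 0.16, and 0.036 under the filter at a mean of 5 CPM. The number of the 8 genes called, 2, was 4 with that correction (block or no block) and 4 without both replicate 2 libraries (6501 of all genes called), and from 1 to 4 without 1 library (1 without control replicate 1, control replicate 3 or CYT replicate 3, and 4 without CYT replicate 2).

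The number of genes called, 4451, was 2859 under the filter at a mean of 5 CPM, which leaves fewer genes to test, 7191 with the correction for GC content and length, 7076 when the block was added to it, 6501 without both replicate 2 libraries, 6209 with the block alone and from 2891 (control replicate 3 left out) to 5752 (CYT replicate 2 left out) without 1 library. The single-strand break list, with 4 called, had 7 with the replicate block, 8 with the GC content and length correction and 8 with both, and from 1 (control replicate 1 or CYT replicate 3 left out) to 5 (control replicate 2 left out) without 1 library. The type II removal list, with 2, had 1 with upper-quartile scaling, 1 under the filter at a mean of 5 CPM, 1 with limma on either pseudocount, 4 with the block, 6 with the correction and 6 with both, and from 0 (control replicate 3 left out) to 2 without 1 library. Its median, -0.011, was positive in 8 fits, reaching 0.14 with upper-quartile scaling. Condensins, with 2, had 6 with the correction and 5 with the block added (1 to 3 without 1 library). Cohesin and CTCF, with 1, had 2 with the correction, 2 with both, and 3 without both replicate 2 libraries (0 to 3 without 1 library, the highest without CYT replicate 2). The G2 and M list, with 7, had 11 with the correction and 12 with both (6 to 9 without 1 library), and the TOP3 partners 2 to 3 without 1 library. What caused these shifts was not tested, and some fits held fewer genes or libraries.

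The replicate block changed no call of the 8 genes, and the difference in the ratio of TOP2A to TOP2B, -0.18, had a sign-flip p of 0.5 in the exact permutation by pairs. Differences in share (CYT minus control, percentage points) moved between settings by less than the pooled SD of the 2 groups. That of TOP3A was 7.001, and 10.9 with GENCODE lengths and 10.3 without CYT replicate 2. That of TOP2A was -8.75, and -13.1 without CYT replicate 2 or control replicate 1, -4.89 without control replicate 2 and -5.38 without CYT replicate 3. That of TOP1 was 5.75, and 3.58 with GENCODE lengths. That of TOP2B was -1.22, and from -2.60 without CYT replicate 2 to -0.37 without CYT replicate 1. That of TOP3B was -0.14 and ran from -0.62 to 0.48 without 1 library. Depth limits TOP1MT in CYT replicate 2, with 21 counts, against 956 counts or more for TOP1 in any library. With 3 libraries a group, every test is limited.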

Other observations

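Other genes tied to topoisomerases by name or partnership were also read. C11orf80, which encodes a relative of archaeal type II topoisomerases that works with SPO11 in meiosis, fell by 1.21 on the log2 scale (SE 0.29, edgeR adjusted p = 0.0141), from 36.0 ± 2.95 to 15.6 ± 2.71 CPM (SD, n = 3). It was called in all 17 alternative fits. SPO11 itself was too low to test, with no library over 2 counts. TOPORS, a ligase that binds TOP1, was not called (log2 fold change 0.71, edgeR adjusted p = 0.173), with 29.9 ± 5.51 CPM in control and 48.98 ± 20.9 CPM in CYT libraries (SD, n = 3). It was called higher with the correction for GC content and length (0.63, edgeR adjusted p = 0.0282) and when the replicate block was added (0.61, edgeR adjusted p = 0.0368). TOPBP1, a checkpoint scaffold that binds TOP2B, was not called (log2 fold change 0.24, edgeR adjusted p = 0.671), and its sign turned without CYT replicate 2 (-0.25) and without both replicate 2 libraries (-0.048). SLFN11, known for making cells sensitive to topoisomerase poisons, had no count in the control libraries and 2, 11 and 10 counts in CYT replicates 1, 2 and 3, too few to pass the filter. The alternatives that kept SLFN11 had it pass through the CYT libraries alone, or unfiltered, and set it against a group at 0, so their calls are not read as support. The pseudogene TOP3BP1 had at most 8 counts in a library.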
